A study of Homo sapiens with 12 samples.

Results

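The genes described here encode the extracellular matrix and the basement membrane, and they were read across 12 RNA sequencing libraries from 3 human kidney cell lines. The 38 genes were chosen by name, as collagen and laminin chains, nidogens, heparan sulfate and chondroitin sulfate proteoglycans, fibulins, fibrillin and adhesive glycoproteins. All 38 were found, with 1 entry each, among the 20979 entries and 19156 distinct gene symbols of the deposited table. The lines were A704 and CAKI-1, established from kidney cancers, and HK2, an immortalised line labelled as normal kidney epithelium. Each line received 4 small interfering RNAs (siRNAs, short duplexes that lower the RNA they match) from Ambion: a non-targeting control, 2 siRNAs against PTPN14 (written PTPN14-1 and PTPN14-2) and a siRNA named LATS, for which the labels do not say LATS1 or LATS2. All were transfected at 25 nM with Lipofectamine RNAiMAX, and RNA was taken after 48 h. There was 1 library for each line and siRNA, so the 3 lines served as the replicates of a siRNA and the 4 siRNAs as the replicates of a line. The labels do not say whether transfections were repeated in separate cultures, so the p-values measure only the spread among these libraries. Titles and descriptions number the PTPN14 siRNAs in opposite ways, and the title numbers were used throughout.

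The basement membrane is a thin sheet under epithelia, built from a laminin network and a type IV collagen network that nidogens and the proteoglycan perlecan link together. The interstitial matrix beside it holds fibrillar collagens, type VI collagen, fibronectin, fibrillin microfibrils and proteoglycans. Collagen and laminin chains are assembled into trimers inside the cell before secretion. In the kidney, tubules rest on such a membrane. PTPN14, a tyrosine phosphatase, and LATS1 and LATS2, kinases of the Hippo pathway, restrain the coactivator YAP, which acts on DNA through TEAD factors, and matrix genes are among the genes YAP and TEAD are known to control.

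Values were FPKM, fragments scaled to transcript length and to library size, a level per length that allows genes to be set side by side. The 12 libraries held between 10862 and 11082 entries above FPKM 1, and the depth estimated from the steps of low values was 16.96 M to 23.22 M reads. PTPN14 FPKM was 18.5, 4.66, 5.78 and 20.97 in CAKI-1, 51.8, 14.9, 19.5 and 43.9 in HK2 and 19.1, 4.09, 7.14 and 20.1 in A704, in the order control, PTPN14-1, PTPN14-2 and LATS siRNA, which is the order of every set of 4 values below. PTPN14 stood at 21.4% to 28.7% of control with PTPN14-1 and at 31.2% to 37.5% with PTPN14-2. LATS1 was 4, 5.2, 4.55 and 0.9 in CAKI-1, 7.67, 11.2, 8.34 and 2.14 in HK2 and 4.85, 4.94, 5.07 and 1.49 in A704, and the LATS siRNA lowered it to 22.5% to 30.7% of control, whereas LATS2 did not pass the test with that siRNA (log2 change 0.12). Keratin genes KRT8 and KRT18 and the tubule factor PAX8 were above FPKM 1 in every library. Other epithelial and tubule markers differed: CDH1 was at most 0.17 in HK2 and CAKI-1, EPCAM at most 0.51 in A704 and CAKI-1, PAX2 at most 0.01 in HK2 and CAKI-1 and LHX1 at most 0.43 in A704 and CAKI-1. The summed FPKM of 4 endothelial markers reached at most 0.42. Of 4 leukocyte markers, CD68, a lysosomal protein, was above FPKM 1 in every library, while PTPRC was at most 0.04 and CD3E was listed at 0. Among 6 fibroblast and stroma markers, DCN (FPKM 5.67 to 8.20) and LUM (46.6 to 74.4) were present in HK2, where PDGFRA, PDGFRB and THY1 were at or below 0.22. S100A4 went the other way, at 1.17 to 1.98 in HK2, 3.78 to 5.24 in A704 and 9.81 to 15.82 in CAKI-1. The summed FPKM of these 6 markers ranged from 3.91 to 5.43 in A704, 54.9 to 84.1 in HK2 and 10.9 to 16.5 in CAKI-1, so it moved with the line, and its part in the line differences below was not tested.

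Of the 38 genes, 21 were above FPKM 1 in all 4 libraries of all 3 lines, 6 in 2 lines, 4 in 1 line and 7 in none. A gene was tested if it exceeded FPKM 1 in at least 3 libraries, which 33 of the 38 did, with 12276 genes tested in all. The 5 left out were the fibrillar collagen chains COL1A2, COL3A1 and COL5A1, the type VI chain COL6A3 and the elastic fibre protein FBLN5, whose highest FPKM in any library was 0.01, 0.05, 0.40, 0.26 and 0.07. COL5A2, BGN, NID2 and COL13A1 exceeded FPKM 1 in 1 line only, so among tested genes they had to differ between lines, and counts over the 33 genes are given as description. Together the 38 genes took 0.512% to 0.716% of summed FPKM in A704, 1.21% to 1.45% in HK2 and 0.701% to 0.816% in CAKI-1. In HK2 the adhesive glycoprotein fibronectin (FN1) alone made up 69.1% to 73.1% of this sum, in CAKI-1 30.2% to 38.6% and in A704 0.526% to 0.752%. In A704 the leading gene was TGFBI, a secreted adhesion protein, with 61.3% to 70.6% of the sum, against 1.48% to 1.93% in HK2 and 9.56% to 11.3% in CAKI-1.

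**Figure D1:**
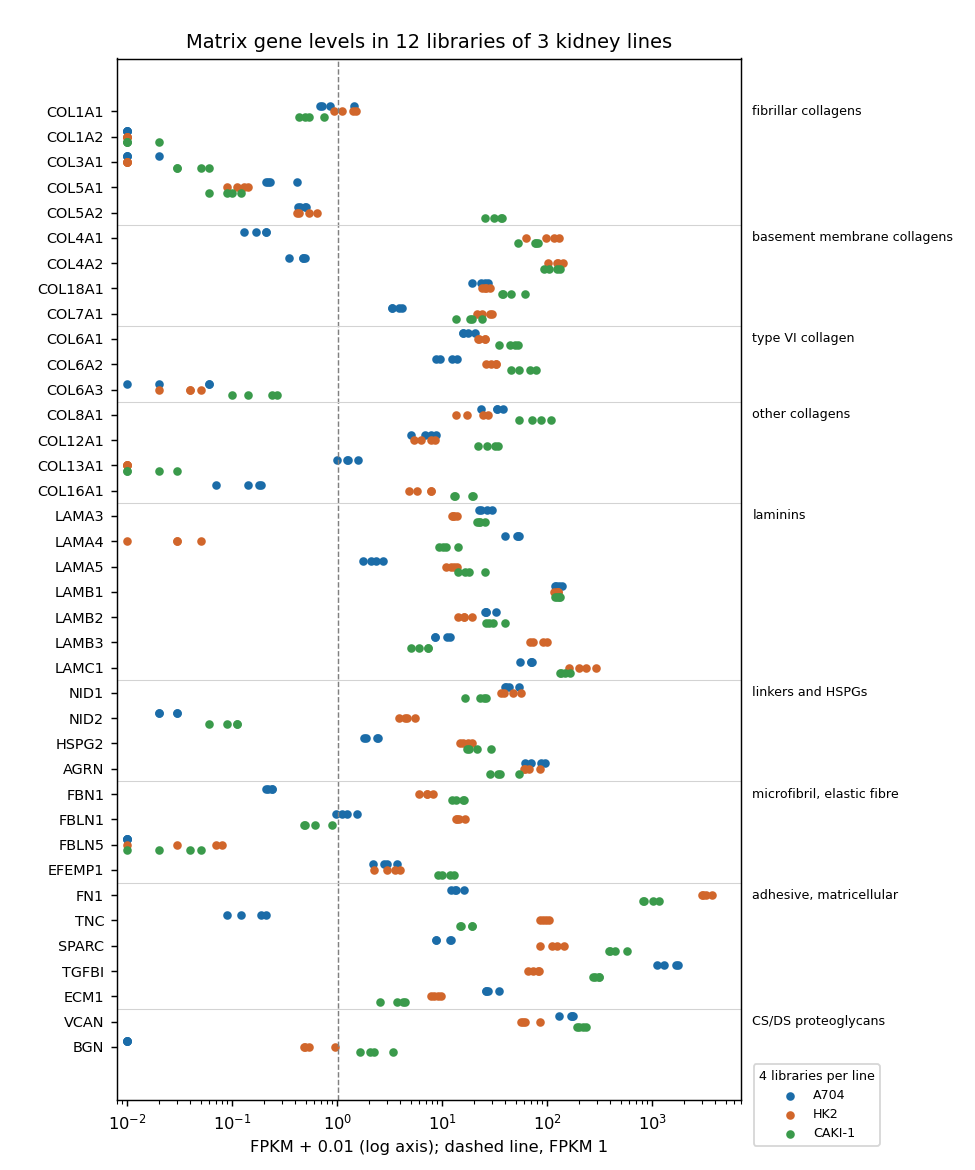
FPKM of the 38 matrix genes in each of 12 libraries (points, log axis, 0.01 added to show values of 0), coloured by line and ordered by role, with a dashed line at FPKM 1. FN1 lies between 3006 and 3709 in HK2 and between 12 and 16.2 in A704, and COL4A1 and COL4A2 reach at most 0.48 in A704.

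COL4A1 and COL4A2, the most widespread chains of type IV collagen, the network-forming collagen of basement membranes, were near absent from A704. COL4A1 FPKM was 52.4, 78.8, 77.2 and 81.8 in CAKI-1, 62.6, 130.1, 115.7 and 96.3 in HK2 and 0.2, 0.2, 0.16 and 0.12 in A704. COL4A2, the chain that joins COL4A1 in the common trimer, was 92.8, 124.05, 103.6 and 133.7 in CAKI-1, 100.8, 141.5, 123.1 and 127.5 in HK2 and 0.46, 0.48, 0.34 and 0.46 in A704. All A704 libraries lay far below the other 8 for both chains, while HK2 and CAKI-1 overlapped. In such bulk RNA, fewer expressing cells and less RNA per cell cannot be told apart. The log2(FPKM + 1) difference between HK2 and A704 was 6.40 for COL4A1 (SE 0.14, adjusted p = 4.47e-13, limma with Benjamini-Hochberg adjustment over all tested genes, n = 4 libraries a line) and 6.43 for COL4A2 (SE 0.09, adjusted p = 2.64e-15). CAKI-1 and HK2 differed in COL4A1 by -0.44 (SE 0.14, adjusted p = 0.0096), and their COL4A2 difference did not pass the threshold (-0.12, 95% interval -0.31 to 0.06). A704 did hold other type IV chains, which are not among the 38 and were named after their values were seen. COL4A5, a chain of the glomerular network, was 9.4 to 13.7 in A704, 1.52 to 2.17 in HK2 and 7.18 to 8.6 in CAKI-1. Its partners COL4A3 and COL4A4 were 2.95 to 4.78 and 2.54 to 3.73 in A704 and at most 0.27 and 0.65 in the other 8 libraries.

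COL4A1 and COL4A2 lie head to head and share the stretch between their start sites, which is shown because the pair was low together in A704. In RefSeq on GRCh38.p14 the COL4A1 start site is base 110307157 of chromosome 13 (minus strand) and the COL4A2 start site base 110307284 (plus strand), 127 bases apart. The 126 bases between them, chr13:110307158-110307283, plus strand, read 5′ to 3′ toward COL4A2, with a CCAAT box and a GC box (GGGCGG) in capitals:
COL4A1-COL4A2 stretch: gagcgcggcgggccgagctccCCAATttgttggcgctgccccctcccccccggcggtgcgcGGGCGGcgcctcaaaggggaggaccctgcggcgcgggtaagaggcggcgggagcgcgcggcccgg
Both motifs were searched on both strands. In windows of the same length before the start site, 21.1% of 35116 RefSeq promoters held CCAAT or ATTGG and 34.6% held GGGCGG or CCGCCC, so both are common. The TEAD-type hexamer GGAATG or CATTCC was not in this window, and 5.89% of promoters held it in a window of that length.

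COL18A1 and COL7A1, the other basement membrane collagens among the 38, were expressed in all lines. COL18A1, whose C-terminal fragment is endostatin, averaged FPKM 45.5 ± 11.2 in CAKI-1, 25.9 ± 1.85 in HK2 and 23.7 ± 3.47 in A704 (SD, n = 4). COL7A1, the chain of anchoring fibrils, averaged 18.8 ± 4.12, 26.0 ± 3.96 and 3.65 ± 0.40 in the same order. Type VI collagen, a beaded filament next to basement membranes, was represented by COL6A1 (45.2 ± 7.87, 23.7 ± 1.88 and 17.4 ± 2.36) and COL6A2 (61.5 ± 14.4, 29.9 ± 3.01 and 11.1 ± 2.4). For both chains the libraries of the 3 lines did not overlap and stood in that order, and the third chain, COL6A3, stayed at or below FPKM 0.26 in all 12 libraries.

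Of the 5 fibrillar collagen chains among the 38, which build the fibrils of tendon and scar, 4 were scarce in all 3 lines. COL1A1 ranged from FPKM 0.42 to 1.49, and its partner COL1A2 was listed at 0 in all A704 and HK2 libraries. COL5A2, a fibril-nucleating chain, was the fifth and was present in CAKI-1 at 25.6, 37.1, 36.2 and 31.1, against 0.5, 0.41, 0.43 and 0.48 in A704 and 0.4, 0.42, 0.63 and 0.53 in HK2. Its usual partner COL5A1 was at or below 0.40 everywhere. Fibrillar chains outside the 38, named after their values were seen, were present too: COL11A1 at 10.1 to 14.7 in A704 (at most 1.35 elsewhere), and COL27A1 at 6.68 to 8.8 in HK2, 8.94 to 11.5 in CAKI-1 and 2.42 to 3.31 in A704.

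Among the remaining collagens, COL8A1, a short chain that forms hexagonal networks, averaged FPKM 80.4 ± 23.2 in CAKI-1, 20.7 ± 6.38 in HK2 and 32.0 ± 6.34 in A704 (SD, n = 4). COL12A1, a fibril-associated chain, averaged 28.6 ± 5.27, 7.0 ± 1.43 and 7.11 ± 1.61 in that order. Between HK2 and A704 the COL12A1 contrast did not pass the threshold (log2 difference -0.01, 95% interval -0.23 to 0.20), and it was higher in CAKI-1 (CAKI-1 against A704 1.87, SE 0.10, adjusted p = 1.11e-09). COL16A1, another fibril-associated chain, was 13.3, 19.2, 12.9 and 19.5 in CAKI-1, 5.7, 7.79, 4.85 and 7.73 in HK2 and 0.13, 0.17, 0.06 and 0.18 in A704, with no overlap between any of the lines. COL13A1, a transmembrane collagen of cell contacts, was 1.25, 1.24, 0.99 and 1.57 in A704 and at or below 0.02 in the other 8 libraries.

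Laminins, the chains on which a basement membrane is first laid down, differed between lines in which α and β chains were present. LAMB1 was nearly the same everywhere, with mean FPKM of 126.3 ± 5.70 in CAKI-1, 123.7 ± 4.53 in HK2 and 127.3 ± 8.42 in A704, and none of the 3 line contrasts passed the threshold (HK2 against A704 -0.04, 95% interval -0.18 to 0.10). LAMC1, the γ chain of most laminins, averaged 144.3 ± 14.7, 221.5 ± 54.1 and 66.6 ± 7.78. The α chain LAMA4, typical of vessel and muscle basement membranes, was 39.97, 53.3, 51.1 and 52.2 in A704, 14.2, 10.8, 10.3 and 9.3 in CAKI-1 and 0, 0.02, 0.02 and 0.04 in HK2, where it was close to absent. LAMA5, the main α chain of adult epithelial basement membranes, stood the other way, with means of 18.6 ± 5.01 in CAKI-1, 12.5 ± 1.26 in HK2 and 2.23 ± 0.42 in A704.

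LAMA3 and LAMB3 are chains of laminin-332, which anchors epithelia. LAMB3 was 91.98, 100.1, 68.9 and 73.3 in HK2, 8.54, 11.8, 8.57 and 11.04 in A704 and 7.27, 6.04, 5.06 and 7.28 in CAKI-1, a mean 13.0 times higher in HK2 than in CAKI-1 (log2 difference of CAKI-1 against HK2 -3.51, SE 0.11, adjusted p = 7.39e-12). LAMA3 was lowest in HK2, at 12.4, 13.01, 13.8 and 12.6, against 23.3, 26.4, 22.3 and 29.6 in A704 and 22.6, 22.9, 21.3 and 25.7 in CAKI-1. HK2 was also lowest for LAMB2, the β chain of the glomerular membrane, with 16.1, 14.1, 16.1 and 19.2, compared with 26.3, 25.5, 26.2 and 32.3 in A704 and 30.3, 27.9, 26.1 and 39.3 in CAKI-1. LAMA3 and LAMB3 thus did not share 1 order of lines.

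**Figure D2:**
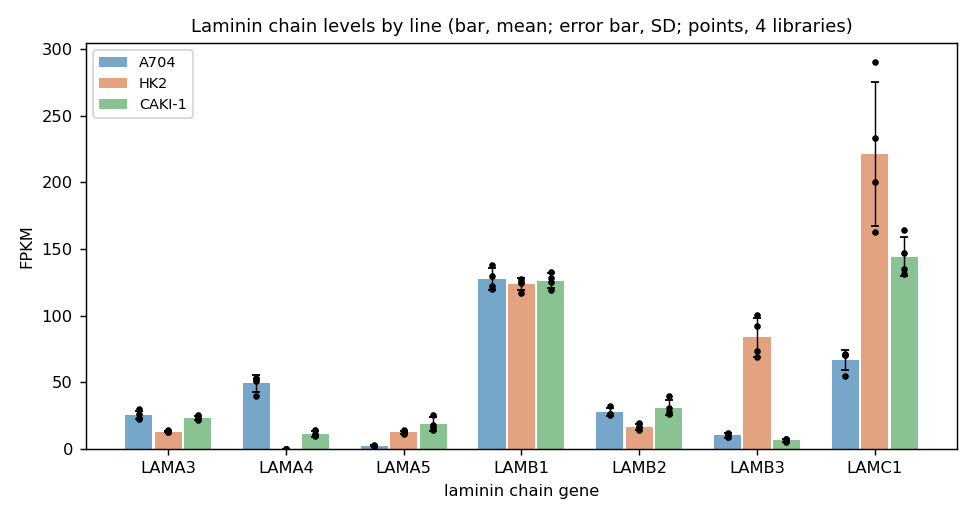
Mean FPKM of 7 laminin chain genes in each line (bars; error bars are SD over 4 libraries; points are the libraries). LAMB1 lies between 117.2 and 138.2 in every library, while LAMB3 is highest in HK2 and LAMA4 is highest in A704.

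The linkers of the basement membrane showed a mixed pattern. Nidogen-1 (NID1) was 42.97, 40.5, 39.9 and 53.5 in A704, 38.8, 55.98, 36.6 and 46.7 in HK2 and lower in CAKI-1, at 24.9, 22.99, 16.3 and 25.9. Nidogen-2 (NID2) was 3.88, 4.64, 5.49 and 4.46 in HK2 and at or below 0.10 in the other 8 libraries. Perlecan (HSPG2) averaged 21.4 ± 5.64 in CAKI-1, 16.8 ± 1.96 in HK2 and 2.13 ± 0.34 in A704, 10.04 times higher in CAKI-1 than in A704. Agrin (AGRN), a heparan sulfate proteoglycan of basement membranes, was 34.2, 35.5, 28.2 and 54.2 in CAKI-1, 85.4, 61.9, 59.97 and 66.7 in HK2 and 60.99, 86.7, 69.97 and 95.8 in A704, with CAKI-1 below the others. A704 had little perlecan, COL4A1 and COL4A2 while holding agrin, NID1 and LAMB1 at levels that did not pass the test against HK2.

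Of the microfibril and elastic fibre proteins, fibrillin-1 (FBN1) was 16.02, 12.4, 13.6 and 15.7 in CAKI-1, 5.94, 8.16, 7.13 and 7.08 in HK2 and 0.2, 0.23, 0.23 and 0.21 in A704, and the 3 lines did not overlap. Fibulin-1 (FBLN1), which binds fibronectin and laminin, was 14.5, 13.8, 13.5 and 16.5 in HK2, 1.22, 1.1, 0.97 and 1.54 in A704 and 0.6, 0.48, 0.47 and 0.89 in CAKI-1. EFEMP1, also known as fibulin-3, averaged 2.9 ± 0.63 in A704 and 3.18 ± 0.74 in HK2 and was higher in CAKI-1, at 10.96 ± 1.78.

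The adhesive and matricellular proteins spanned the widest range of levels. FN1 was 3244, 3709, 3048 and 3006 in HK2, 1162, 838.1, 809.7 and 1020.2 in CAKI-1 and 13.5, 16.2, 12 and 13.2 in A704, so its mean was 237 times higher in HK2 and 69.9 times higher in CAKI-1 than in A704. Tenascin-C (TNC), an anti-adhesive glycoprotein, was 84.6, 96.8, 104.1 and 91.1 in HK2, 19.1, 14.6, 15.1 and 19.4 in CAKI-1 and 0.18, 0.2, 0.08 and 0.11 in A704. SPARC, a collagen-binding matricellular protein, was highest in CAKI-1 at 398.3, 444.6, 388.4 and 569.6, with 85.1, 145.4, 111.5 and 122.7 in HK2 and 8.73, 11.8, 8.7 and 12.1 in A704. These 3 genes were lowest in A704 in every library, as FN1 differed by 7.79 between HK2 and A704 (SE 0.10, adjusted p = 2.64e-15) and SPARC by 5.31 between CAKI-1 and A704 (SE 0.09, adjusted p = 2.79e-14).

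TGFBI was instead highest in A704 and, like SPARC, higher in CAKI-1 than in HK2. It was 1101, 1766, 1296 and 1666 in A704, 287.8, 312.5, 275.1 and 311.3 in CAKI-1 and 65.5, 81.9, 73.3 and 83.8 in HK2, a mean 19.1 times higher in A704 than in HK2. ECM1, a secreted matrix protein that binds perlecan, was 4.4, 3.69, 2.56 and 4.22 in CAKI-1, 7.74, 9.71, 8.42 and 9.12 in HK2 and 26.3, 27.2, 25.9 and 34.6 in A704. Versican (VCAN), a large chondroitin sulfate proteoglycan, was 220.4, 202.8, 236.01 and 193.6 in CAKI-1, 172.9, 128.2, 169.2 and 174.6 in A704 and 60.8, 58.4, 86.02 and 56.3 in HK2. Biglycan (BGN), a small leucine-rich proteoglycan, was 1.63 to 3.36 in CAKI-1, at most 0.94 in HK2 and listed at 0 in all A704 libraries.

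Counted over the 33 tested genes, 26 differed between HK2 and A704 (18 higher and 8 lower in HK2, where 44.0% and 40.6% of all tested genes were), 29 between CAKI-1 and A704 (20 higher and 9 lower in CAKI-1, against 41.8% and 39.3% of all) and 30 between CAKI-1 and HK2 (18 higher and 12 lower in CAKI-1, against 40.4% and 41.3%). Of all 12276 tested genes, 84.6%, 81.1% and 81.7% differed in these 3 contrasts, so the shares of matrix genes (78.8%, 87.9% and 90.9%) lay near the background. The median absolute log2 difference was 1.59, 1.70 and 0.99 for the matrix genes and 0.67, 0.54 and 0.58 for all tested genes. This comparison and the line counts that follow are description. COL5A2, BGN, NID2 and COL13A1 passed the filter only through the line where they were high. COL4A1, COL4A2, TNC, FBN1 and COL16A1 passed it only through HK2 and CAKI-1, with FPKM of at most 0.48 in A704. The matrix genes were also chosen with earlier results of these data known. All 4 A704 libraries lay below the other 8 for 15 of 33 genes (45.5%, against 22.3% of all tested genes) and above them for 4 (12.1%, against 20.7%). The 15 include genes near 0 in A704, such as NID2, at 0.01 to 0.02 there and only 0.05 to 0.10 in CAKI-1. All 4 CAKI-1 libraries lay above the other 8 for 13 genes (39.4%, against 17.1%) and below for 5 (15.2%, against 15.9%). For HK2 the counts were 5 above and 5 below (15.2% each, against 24.1% and 22.1%). The 3 line contrasts share libraries and are not independent of each other.

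The siRNA comparisons asked which matrix genes changed when PTPN14 or the LATS target was lowered, within lines. The 3 siRNAs were each set against the same control libraries, so these comparisons share them. With PTPN14-1, 5 of the 33 tested genes passed the threshold (15.2%, against 5.87% of all tested genes). EFEMP1, COL12A1, SPARC and TGFBI rose (4 of 33, against 2.39% of all) and COL8A1 fell (1 of 33, against 3.47%). With PTPN14-2, 1 of 33 passed (1.35% of all), COL8A1, which rose (0.448% of all rose and 0.904% fell). With the LATS siRNA none of the 33 passed in limma (15 of 12276 genes did, 0.122%, of them 0.0244% of all genes higher), while 14 of 33 (42.4%, against 11.2% of all) had an unadjusted p under 0.05. When every entry above 0 in at least 1 library was tested, with no other filter on low values, EFEMP1 alone of the 38 passed with PTPN14-1. None of the 38 then passed with PTPN14-2.

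**Figure D3:**
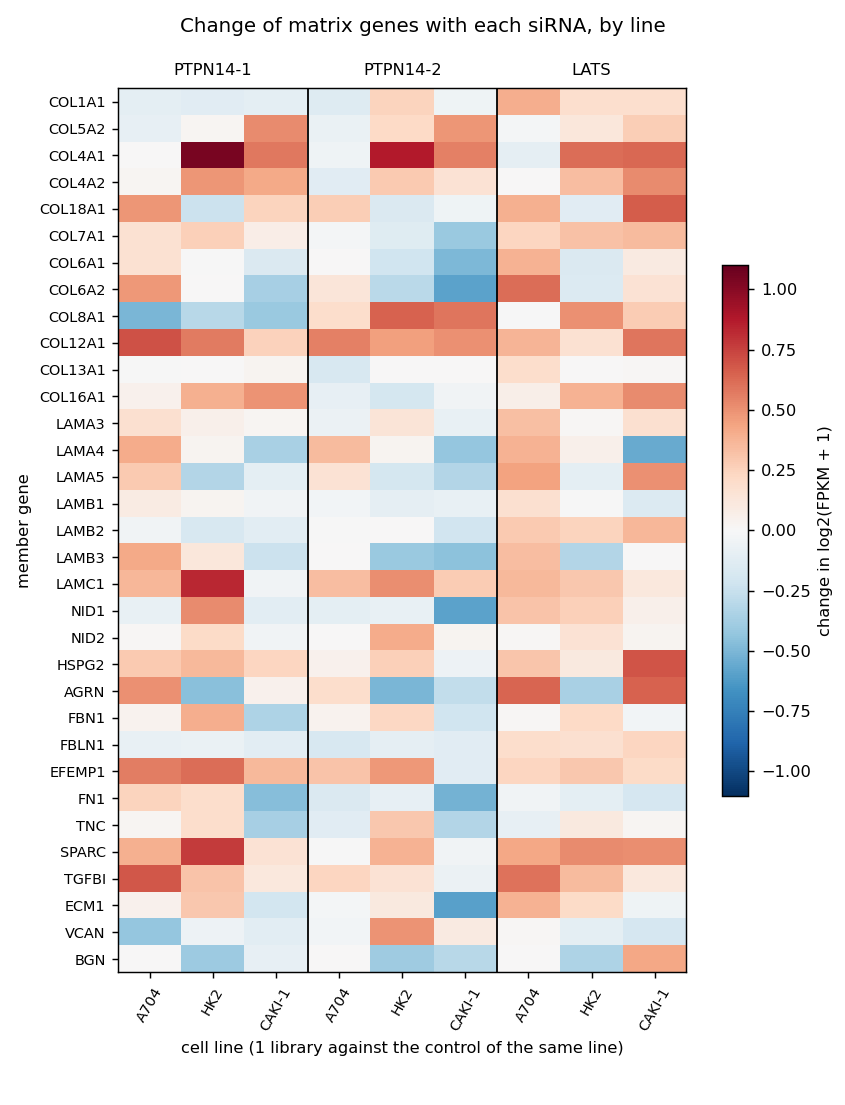
Change in log2(FPKM + 1) of the 33 tested matrix genes with each siRNA against the control of the same line (colour; 9 columns, 1 library each against its control). COL8A1 is blue in all 3 PTPN14-1 columns and red in all 3 PTPN14-2 columns, and 30 of 33 genes have an average change above 0 with the LATS siRNA.

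COL8A1 (chr3:99638475-99799226, plus strand, GENCODE v29 on GRCh38) moved in opposite directions with the PTPN14 siRNAs. Its FPKM was 71.8, 53.9, 108.6 and 87.4 in CAKI-1, 17.1, 13.7, 27.3 and 24.6 in HK2 and 33.4, 23.2, 38.3 and 33.3 in A704. In each line the PTPN14-1 library was the lowest of the 4 and the PTPN14-2 library the highest. The log2 change was -0.41 with PTPN14-1 (SE 0.10, adjusted p = 0.0269, n = 3 lines) and 0.48 with PTPN14-2 (SE 0.10, adjusted p = 0.0268). The PTPN14-1 call was lost without the A704 control, the CAKI-1 control or the PTPN14-1 library of HK2 or CAKI-1 (adjusted p up to 0.133), and the PTPN14-2 call without the control or PTPN14-2 library of HK2 or CAKI-1 (up to 0.185). The direct difference between the PTPN14 siRNAs was -0.88 (SE 0.10, adjusted p = 1.43e-04), and it passed the threshold in each of 12 fits that left out 1 library (adjusted p up to 0.00187). PTPN14 itself was lower than control with both siRNAs in all 3 lines.

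COL12A1 (chr6:75084326-75206051, minus strand) rose with PTPN14-1, and its estimate with PTPN14-2 was of nearly the same size. It was 22.1, 26.6, 31.8 and 33.8 in CAKI-1, 5.43, 8.56, 7.79 and 6.22 in HK2 and 5.02, 8.76, 7.85 and 6.79 in A704, so that the control library was the lowest in every line. The log2 change was 0.51 with PTPN14-1 (SE 0.12, adjusted p = 0.0237), 0.50 with PTPN14-2 (adjusted p = 0.0543) and 0.38 with LATS (adjusted p = 0.283). The difference between the PTPN14 siRNAs was 0.00, with a 95% interval from -0.25 to 0.25. With PTPN14-2 COL12A1 passed under a pseudocount of 0.1, a filter at FPKM 3 or quantile normalisation, and without the A704 PTPN14-1, CAKI-1 PTPN14-1 or CAKI-1 LATS library. The call with PTPN14-1 was lost without the control of any line or the PTPN14-1 library of A704 or HK2, with adjusted p up to 0.116 without the HK2 PTPN14-1 library.

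SPARC (chr5:151661096-151687165, minus strand), whose 12 values are given above, was higher than control in all 3 lines with PTPN14-1 (log2 change 0.44, SE 0.11, adjusted p = 0.0348). The LATS siRNA gave 0.49 (SE 0.11, adjusted p = 0.146) and PTPN14-2 gave 0.11 (adjusted p = 0.672). In A704 the PTPN14-1 and LATS libraries lay above the control and PTPN14-2 libraries. Leaving out the same libraries as for COL12A1 ended the SPARC call, with adjusted p up to 0.182 without the HK2 control.

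The 250 bases before the start sites of COL12A1 and SPARC are shown because both passed the test with PTPN14-1 and both hold a TEAD-type hexamer. They are RefSeq sequence on GRCh38.p14, COL12A1 at chr6:75206054-75206303 and SPARC at chr5:151686916-151687165, both on the minus strand, written 5′ to 3′ toward the start site, with GGAATG or its reverse complement CATTCC in capitals:
COL12A1: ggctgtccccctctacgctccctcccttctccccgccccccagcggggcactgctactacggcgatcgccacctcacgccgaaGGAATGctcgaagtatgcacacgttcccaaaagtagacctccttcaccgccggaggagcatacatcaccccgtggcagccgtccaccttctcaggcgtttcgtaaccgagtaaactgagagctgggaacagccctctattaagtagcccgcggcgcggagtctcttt
SPARC: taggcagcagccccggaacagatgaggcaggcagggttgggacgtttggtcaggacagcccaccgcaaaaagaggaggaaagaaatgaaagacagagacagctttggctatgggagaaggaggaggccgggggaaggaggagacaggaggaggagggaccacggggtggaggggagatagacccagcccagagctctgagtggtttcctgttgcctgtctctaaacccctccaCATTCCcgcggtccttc
The hexamer began at base -167 for COL12A1 and -17 for SPARC, counted from the start site. It was searched on both strands, and 3 of the 30 genes with a promoter entry held it (the other was FBN1, at -58), against 11.9% of 35116 promoters. A match of these letters is a description of the sequence, and of the other genes called with PTPN14-1, TGFBI had an entry without it and EFEMP1 and COL8A1 had no entry.

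EFEMP1 (chr2:55865967-55924139, minus strand) had FPKM of 9.97, 13.1, 9.07 and 11.7 in CAKI-1, 2.25, 3.97, 3.51 and 2.99 in HK2 and 2.18, 3.71, 2.95 and 2.75 in A704. PTPN14-1 gave the highest value in each line, a log2 change of 0.51 (SE 0.10, adjusted p = 0.0141). PTPN14-2 gave 0.22 (adjusted p = 0.346), with the CAKI-1 library below its control. The PTPN14-1 call was lost without the A704 control, the HK2 control or the HK2 PTPN14-1 library, with adjusted p up to 0.0876 without the HK2 control.

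TGFBI (chr5:136028895-136063818, plus strand) rose with PTPN14-1 by 0.37 (SE 0.10, adjusted p = 0.0428) and was above control in all 3 lines, from 1101 to 1766 in A704. The LATS siRNA gave 0.35 (adjusted p = 0.245). The TGFBI call was kept in 3 of 12 fits that left out 1 library, those without the A704 LATS, CAKI-1 control or CAKI-1 LATS library (adjusted p up to 0.192, without the A704 control), and it was lost under quantile normalisation (adjusted p = 0.114).

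**Figure D4:**
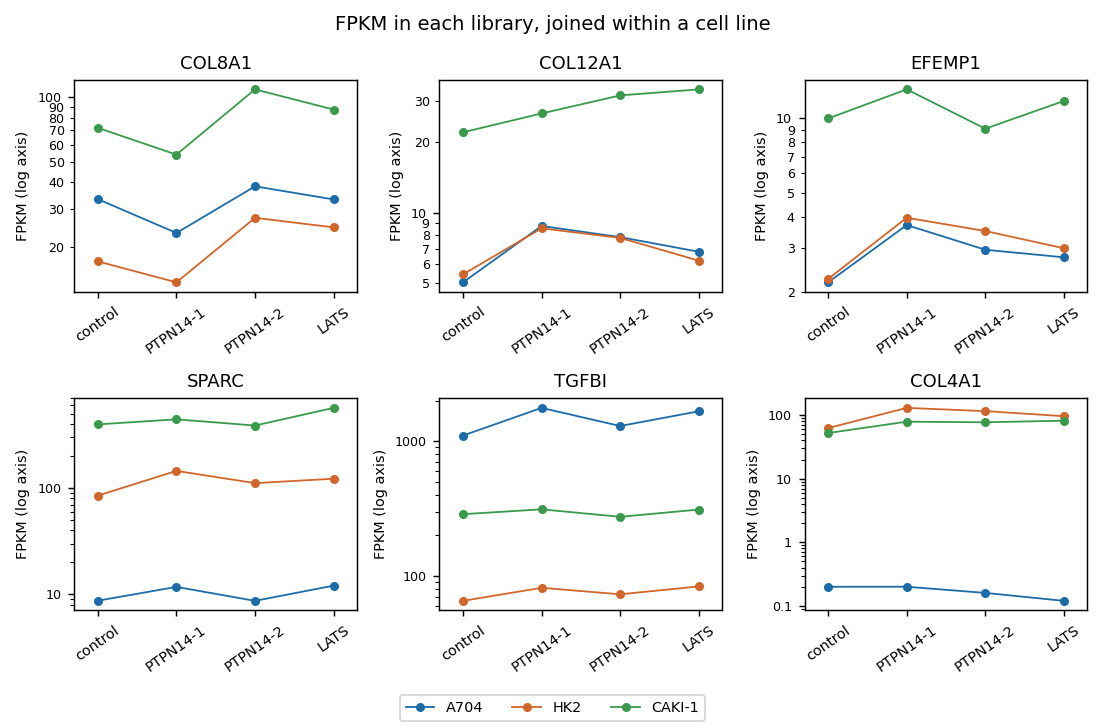
FPKM (log axis) of 6 matrix genes with each siRNA, joined within a line. COL8A1 dips with PTPN14-1 and peaks with PTPN14-2 in all 3 lines, and COL12A1 is lowest in the control library of each line.

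For COL4A1 no siRNA contrast passed the threshold over all 12 libraries. Its estimated log2 change was 0.54 with PTPN14-1 (adjusted p = 0.0672), 0.46 with PTPN14-2 (adjusted p = 0.197) and 0.38 with LATS (adjusted p = 0.401). In HK2 its FPKM was 62.6 with control and 96.3 to 130.1 with the other siRNAs, and in CAKI-1 52.4 against 77.2 to 81.8, while in A704 it was at most 0.2. COL4A1 did pass with both PTPN14 siRNAs when the A704 control or line A704 was left out, and with PTPN14-1 when the A704 PTPN14-1 library was left out. COL4A2 passed with PTPN14-1 without the A704 control or line A704. LAMC1 gave 0.39, 0.38 and 0.26 with the 3 siRNAs in the same order (adjusted p = 0.0947, 0.18 and 0.467), and it passed with PTPN14-1 without the CAKI-1 PTPN14-1 library. That library was the one below its control, at FPKM 131.57 against 134.96, while LAMC1 rose with PTPN14-1 in HK2 (162.81 to 290.32) and A704 (54.98 to 71.03). Over all 12 libraries FN1 did not pass in any siRNA contrast, with PTPN14-2 at -0.26 (95% interval -0.52 to 0.00). Between the PTPN14 siRNAs it passed without the CAKI-1 PTPN14-1 library.

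The PTPN14 siRNAs differed from each other in 4 of the 33 genes (11.7% of all tested genes differed). Of these, 2 were lower with PTPN14-1 (6.18% of all were) and 2 higher (5.52%). Besides COL8A1, VCAN was lower with PTPN14-1 than with PTPN14-2 (log2 difference -0.39, SE 0.11, adjusted p = 0.0432). COL16A1 (difference 0.42, SE 0.10, adjusted p = 0.0212) and COL7A1 (0.35, SE 0.09, adjusted p = 0.0256) were higher with PTPN14-1. COL7A1 FPKM was 18.4, 19.4, 13.7 and 23.7 in CAKI-1, 23.8, 28.8, 21.6 and 29.96 in HK2 and 3.34, 3.86, 3.28 and 4.1 in A704, with PTPN14-1 above PTPN14-2 in each line. The COL16A1 and COL7A1 calls were lost without either PTPN14 library of HK2 or CAKI-1. The VCAN call was lost without the PTPN14-1 library of A704 or HK2, the PTPN14-2 library of HK2 or CAKI-1, or the CAKI-1 control, and under quantile normalisation (adjusted p = 0.0526). It was also lost in limma with no trend or robust option (adjusted p = 0.0517), and it passed in 9 of 21 alternatives. Among fits that left out 1 library, the highest adjusted p was 0.105 for COL16A1 and 0.206 for VCAN, both without the HK2 PTPN14-2 library. For COL7A1 it was 0.142, without the CAKI-1 PTPN14-2 library. PTPN14-1 was above PTPN14-2 in all 3 lines for 17 of 33 genes (24.9% of all tested genes) and below in all 3 for 2 (23.2%). The PTPN14 level also differed between these siRNAs, with 21.4% to 28.7% of control left by PTPN14-1 and 31.2% to 37.5% by PTPN14-2, and its part in these differences was not tested.

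**Figure D5:**
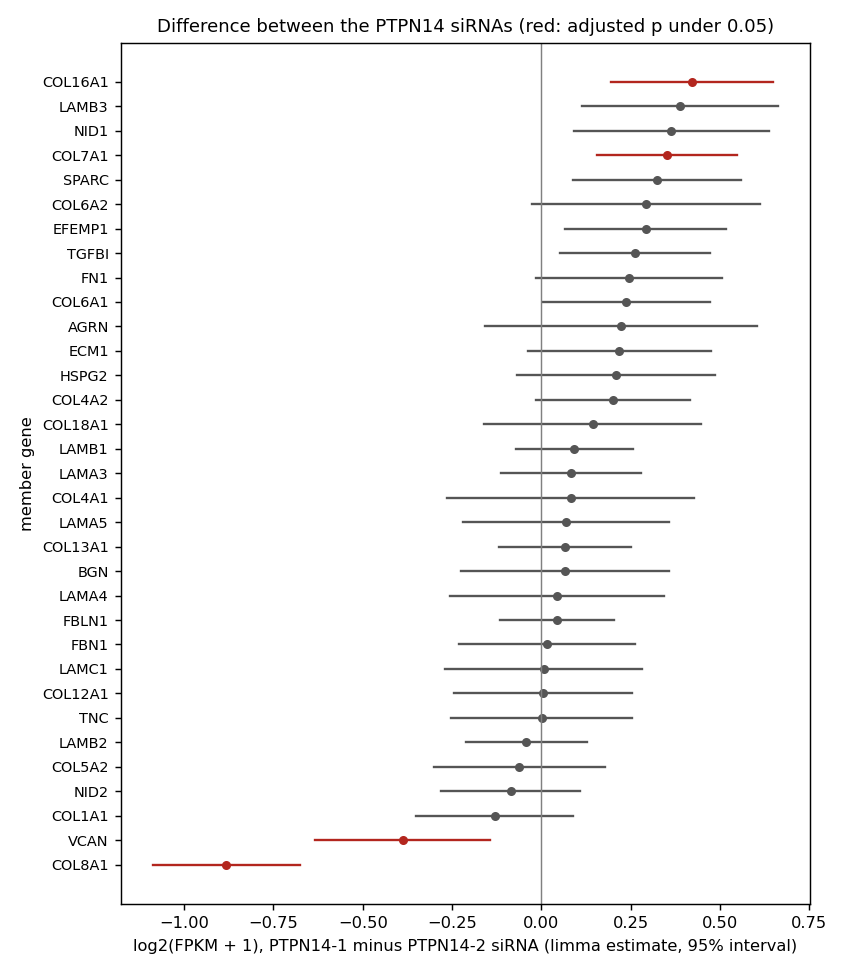
Difference in log2(FPKM + 1) between PTPN14-1 and PTPN14-2 siRNA for the 33 tested genes (points, limma estimates over 3 lines; bars, 95% intervals; red, adjusted p under 0.05). COL8A1 at -0.88 and VCAN at -0.39 lie to the left, and COL16A1 at 0.42 and COL7A1 at 0.35 to the right.

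With the LATS siRNA the estimate was above 0 for 30 of 33 genes, whereas it was above 0 for 49% of all tested genes. The median log2 change was 0.21 for the matrix genes and -0.00 for all genes, and 14 genes were above control in all 3 lines (18.2% of all tested genes were) and 1 below in all 3 (19.0%). After SPARC, the largest estimates were COL4A1, COL12A1, HSPG2 (0.37, adjusted p = 0.329) and TGFBI. LAMB2 gave 0.30 (SE 0.08, adjusted p = 0.221), with the LATS library the highest of the 4 in each line. By line, the median log2 change over the 33 genes was 0.19 in CAKI-1, 0.16 in HK2 and 0.29 in A704. The A704 control library had an RNA integrity number of 9.6 and the other 11 libraries 10, and this library enters every A704 change; its part was not tested. For PTPN14-1 the median was 0.05 and for PTPN14-2 -0.02.

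Whether a siRNA target acted differently between lines was tested with an interaction term in limma, with both PTPN14 siRNAs pooled as the same target. None of the 33 genes passed, nor did any of the 12276 (smallest adjusted p = 1.00). Without adjustment, 119 genes (0.969%) had p under 0.05, a smaller share than that threshold gives by chance. Among them were 4 of the 33 genes, COL4A1, LAMA4, BGN and AGRN, which are named as description. AGRN was above its control with all 3 siRNAs in A704 and below it with all 3 in HK2. LAMA4 was above control with all 3 siRNAs in A704 and below it with all 3 in CAKI-1. Within a line these 3 changes share 1 control library. For LAMA4 in A704 that control stood apart from the other libraries of the line (39.97 against 51.07 to 53.33). The 3 residual degrees of freedom all came from differences between the PTPN14 siRNAs within a line, so their divergence counted as spread. A p that misses the threshold does not show that the lines responded alike.

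The other matrix genes were taken from wider lists, of which 11 of 28 other collagens, 4 of 9 other laminin and netrin chains, 24 of 42 other glycoproteins, 6 of 16 other proteoglycans and 25 of 36 matrix proteases and inhibitors were tested. Among the 25 tested proteases and inhibitors, 2 rose and 1 fell with PTPN14-1, where 2.39% of all tested genes rose and 3.47% fell. ADAMTS9, a protease that cleaves versican, fell by 0.99 on the log2 scale (SE 0.09, adjusted p = 8.0e-05), from 2.04 to 0.67 in CAKI-1, 11.4 to 5.28 in HK2 and 9.66 to 3.9 in A704. With PTPN14-2 it was 2.03, 12.3 and 9.83, close to control, and the difference between the siRNAs was -1.03 (SE 0.09, adjusted p = 3.0e-05). ADAMTS1, another versican-cleaving protease, rose by 0.47 (adjusted p = 0.029), and TIMP2, an inhibitor of matrix metalloproteinases, by 0.33 (adjusted p = 0.0475).

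None of the other collagens, laminin and netrin chains, glycoproteins or proteoglycans of these lists passed with PTPN14-1. With PTPN14-2 only MATN2, a filament-forming matrilin, passed among the wider lists (0.54, SE 0.12, adjusted p = 0.0431), and with LATS none did. Of all tested genes, 1.35% passed with PTPN14-2 and 0.122% with LATS. The median log2 change with LATS was 0.10 for the other collagens, 0.07 for the laminin and netrin chains, 0.11 for the glycoproteins, 0.10 for the proteoglycans and 0.13 for the proteases and inhibitors, beside -0.00 for all tested genes. Between the PTPN14 siRNAs, 5.52% of all tested genes were higher with PTPN14-1 and 6.18% lower. In the wider lists, 1 of 11 other collagens and 2 of 4 laminin and netrin chains were higher. Of the glycoproteins 1 of 24 was lower, and of the 25 proteases and inhibitors 1 was higher and 1 lower. Of these genes, ADAMTS1 (0.57, adjusted p = 0.00653) was higher with PTPN14-1 and MFAP3, a microfibril-associated protein, was lower (-0.48, adjusted p = 0.00488). Among the 38 genes LAMB3 did not pass this contrast over all 12 libraries (0.39, adjusted p = 0.0662), and it passed without the A704 control, the HK2 LATS or the CAKI-1 PTPN14-1 library.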

How the data were processed

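Polyadenylated RNA from 12 transfected cultures of 3 kidney lines was sequenced from stranded libraries, per the labels' protocols. The authors deposited 1 table of FPKM with 2 decimals; the submitters' processing notes name the aligner STAR, version 2.4.0g1, and the build GRCh38.p1. No source used here gives the counting tool, annotation or strand setting, so genes that overlap on opposite strands are uncertain, among them COL4A1 and COL4A2 near their start sites. The matrix genes and gene lists were chosen with earlier results of these data known.

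From the deposited FPKM, log2(FPKM + 1) was computed for 12276 genes above FPKM 1 in at least 3 libraries. Fold changes are on that scale, which understates the change of low genes. limma 3.58.1 (R 4.3.3, statmod 1.5.0, trend and robust options) fitted line and siRNA as additive terms with 6 residual degrees of freedom over all 12 libraries, and a second model with line by target interaction had 3. p-values were adjusted by Benjamini-Hochberg over all tested genes, with a threshold of 0.05 and 95% intervals. The line was thus the block in every siRNA contrast, since libraries of 1 number in the design come from the same line: deviations of libraries from the siRNA means correlated by 0.958 to 0.983 over 18 pairs of the same line. No column was without a sample and no pair of libraries was identical.

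Depth was estimated for each library from the smallest steps in the FPKM of 24 to 41 single-exon genes, of which 76.92% to 90.0% lay on a whole step within a rounding of 0.005. Tested on simulated data for the PTPN14-1 contrast (5 sets, 200 changed genes of 12276), the fit recovered 22.4% of 1.25-fold, 80.8% of 1.5-fold, 97.6% of 2-fold and 98.8% of 3-fold changes, with 2.97% false calls. Changes were planted only in better expressed genes and alike in every line, with spreads drawn at random across genes. Recovery for genes low or absent in a line was not simulated. Values in all 12 libraries are printed for the targets, for genes past the threshold in a siRNA contrast and for tested genes whose 4 libraries in 1 line all lay above or below the other 8, up to 6 a line and direction; wider lists were limited to 4 named genes a contrast. Alternatives were a pseudocount of 0.1, no filter, a filter at FPKM 3, quantile normalisation, no trend or robust option, no line term, and leaving out libraries or lines. Gene positions are from GENCODE v29 on GRCh38.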

Additional observations from a re-analysis of the deposited data

Results flagged for a closer look

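Among the 4 libraries of each line, 5 of 82 gene and line groups held 1 library whose gap to the nearest other exceeded Dixon's 95% critical value on the log2 scale. Chance flags about 1 in 20 such groups, and the 4 libraries of a line differ in siRNA, so a library can stand apart through its siRNA. COL4A1 was lowest in the CAKI-1 control, at FPKM 52.36, with the other 3 between 77.25 and 81.77. LAMA4 was lowest in the A704 control, at 39.97 (others 51.07 to 53.33), and so was LAMC1, at 54.98 (others 70.03 to 71.03). LAMB2 was highest in the A704 LATS library, at 32.31 (others 25.53 to 26.31). VCAN was lowest in the A704 PTPN14-1 library, at 128.24 (others 169.18 to 174.59). The A704 control was the library with the RNA integrity number of 9.6.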

How the results depend on the processing

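None of the 10 siRNA results for single genes past the threshold changed direction under the alternatives run; estimates of other genes were not followed. The count of genes past the threshold with PTPN14-1 (5) was 1 with no filter on low values. For PTPN14-2 (1) it was 2 with a pseudocount of 0.1, with a filter at FPKM 3 or with quantile normalisation, COL12A1 being the added gene, and 0 with no filter. For the difference between the PTPN14 siRNAs (4) it was 1 with no filter. Without the replicate block, here the line, all 3 counts were 0. Leaving out 1 library gave 0 to 5 for PTPN14-1 (0 without the HK2 PTPN14-1 library), 0 to 2 for PTPN14-2 (0 without the control or PTPN14-2 library of HK2 or CAKI-1) and 1 to 5 between the siRNAs (1 without the PTPN14-1 or PTPN14-2 library of HK2 or the PTPN14-2 library of CAKI-1). Leaving out line A704 gave 3 for PTPN14-1 and 2 for PTPN14-2. Those 3 were other genes, COL4A1 and COL4A2 among them. All 5 genes called with PTPN14-1 over all libraries missed the threshold in limma without A704 (adjusted p 0.0704 to 0.209). Leaving out line HK2 gave 0, 0 and, between the siRNAs, 1, and line CAKI-1 gave 3, 0 and 1. With fewer libraries fewer degrees of freedom remain. LATS gave 0 throughout. The line contrasts kept counts within 1.5 times, and the interaction stayed at 0. COL8A1 between the PTPN14 siRNAs passed in 20 of 21 alternatives, all but the one without the line term. The depth of each library is an estimate, and changes under 1.5-fold were often missed in simulated data, so matrix genes short of the threshold are not shown to be unaffected.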
